A study of Homo sapiens with 5 samples.

Results

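Long noncoding, antisense and snoRNA host genes were examined in a leukemia cell line given SB216763, an inhibitor of the kinase GSK-3. The genes were chosen by symbol, from array probes whose platform annotation names exactly 1 gene. The rule took symbols of the numbered LINC and SNHG series, symbols ending in -AS1, -AS2 or -IT1, and GAS5, MALAT1, NEAT1, DANCR, EPB41L4A-AS1 and MIR17HG, and left out the HOXA antisense genes. Of 18417 genes measured, 395 met it: 206 LINC genes, 175 antisense genes, 9 intronic transcripts (-IT1), and MALAT1, MIR17HG, SNHG17, SNHG29 and EPB41L4A-AS1. GAS5 was read only by probes that also name a snoRNA and is described with those, while NEAT1 and DANCR were not analysed here. RefSeq held an entry for 389 of the 395, all 389 of them classed as long noncoding RNA.

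RS4.11 (RS4;11) is an established human leukemia line with a rearranged MLL gene. On 3 Affymetrix whole-transcript arrays was RNA of cells kept with 10 uM SB216763 for 20 h, and on 2 arrays RNA of control cells kept with the solvent DMSO for 20 h. The labels do not say whether the arrays hold separate cultures; p-values therefore reflect only how much these arrays vary, and that variation may be technical. Each array had 33297 probes, median log2 values lay between 6.77 and 6.84, and the number of arrays, not depth, limits the precision. A gene was called above background on an array when it exceeded the 95th percentile of 341 olfactory receptor genes there, a level of 5.98 to 6.15 on the SB216763 arrays and 6.17 to 6.19 on the control arrays. Of 6 B cell precursor markers measured, CD79B and PAX5 were above background on all 5 arrays and DNTT, VPREB1 and CD22 on none, whereas all 5 measured myeloid markers were above it. CD79B and PAX5 were close to that level, at 6.55 to 6.87, as were the myeloid markers CD14 and MPO, at 6.10 to 6.59. LYZ lay at 11.86 to 12.78, CSF1R at 8.60 to 8.82 and ELANE at 7.81 to 8.18. Of 4 erythroid markers KLF1 alone was above background on all 5 arrays, and of 6 T cell markers none was. The name of the line comes from the labels, and its identity was not tested. The summed level of the myeloid markers was 12.77 to 12.94 (log2) with SB216763 and 12.16 to 12.25 in control cells, and LYZ was the 1 marker called, higher with SB216763 (log2 difference 0.78, SE 0.09, adjusted p = 0.00274 by limma). CSF1R differed by 0.11, CD14 by 0.00, ELANE by -0.05 and MPO by -0.23, none passing. The summed level of the B cell precursor markers was 8.59 to 8.75 with SB216763 and 8.57 to 8.58 in control cells, and the part of either list in the results was not tested. In bulk RNA, fewer cells of a type and less RNA per cell cannot be told apart.

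Long noncoding RNAs are transcribed, and mostly spliced, like messenger RNAs, without a known protein product. Some act in the nucleus, as MALAT1 does in nuclear speckles, and others serve as carriers of small RNAs. The snoRNAs, which guide the chemical modification of ribosomal RNA, are cut from introns of host genes, and several spliced host RNAs are degraded by nonsense-mediated decay. Antisense genes are transcribed from the strand opposite the gene they are named after, and -IT1 transcripts lie within an intron of theirs.

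MIR17HG is the host of the miR-17-92 cluster, microRNAs known for restraining cell cycle inhibitors and apoptosis genes and for their amplification in lymphoma. The mature products are shown because they are what this transcript is cut into. Capitals mark the seed, bases 2 to 8, which pairs with targets. They lie on the + strand in RefSeq's GRCh38.p14, with miR-17-5p at chr13:91350618-91350640 and miR-92a-3p at chr13:91351361-91351382.
hsa-miR-17-5p: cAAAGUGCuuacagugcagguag
hsa-miR-18a-5p: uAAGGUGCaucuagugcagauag
hsa-miR-19a-3p: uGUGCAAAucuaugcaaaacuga
hsa-miR-20a-5p: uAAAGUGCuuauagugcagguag
hsa-miR-19b-3p: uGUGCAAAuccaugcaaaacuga
hsa-miR-92a-3p: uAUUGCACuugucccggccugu
The seed AAAGUGC was shared by miR-17-5p and miR-20a-5p, and the seed GUGCAAA by miR-19a-3p and miR-19b-3p. The mature microRNAs were not analysed here, and the values given are those of the host transcript.

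A smaller share of these genes than of all genes passed the test, and more of them gave little signal. With SB216763, 15 of the 395 rose and 5 fell (limma, adjusted p under 0.05, Benjamini-Hochberg over all genes), or 5.06%, where 13.1% of all genes tested were called, 7.21% higher and 5.92% lower. Above background on no array were 204 (51.6%, against 28.6% of all genes), and 148 were above it on all 5. Of those 148, 10 were called higher and 1 lower, or 7.43%, against 18.2% of the genes above background on all 5 arrays. The 148 were still dimmer, with a median level of 6.91 (log2) against 8.33 for those genes. The part of the level in the lower share was not tested. At an unadjusted p under 0.05 there were 40 higher and 16 lower, or 14.2% of the 395, against 26.5% of all genes. The groups did not overlap in 66 genes higher and 40 lower with SB216763, or 26.8%, against 41.4% of all genes. The median difference was 0.02 on the log2 scale, beside 0.00 for all genes. Among 243 long noncoding genes with other kinds of symbol, 13 were called higher and 3 lower, or 6.58%.

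No call among these genes outlasted the loss of a control array. With control replicate 1 left out, no noncoding gene was called by limma. The same held when control replicate 2 was left out. Over all genes, 1 and 0 passed in those fits, and the 1 is not named here, so every call given below from the fit over genes is lost without either control array. Leaving out SB216763 replicate 1, 2 or 3 gave 9, 22 and 13 noncoding genes higher and 1, 8 and 1 lower. Over all 18417 genes, 993, 2859 and 1606 were called in those fits. All 20 called genes kept their sign whichever array was left out. Where the groups do not overlap, leaving out 1 array cannot change the sign, so this is no measure of stability.

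**Figure D1:**
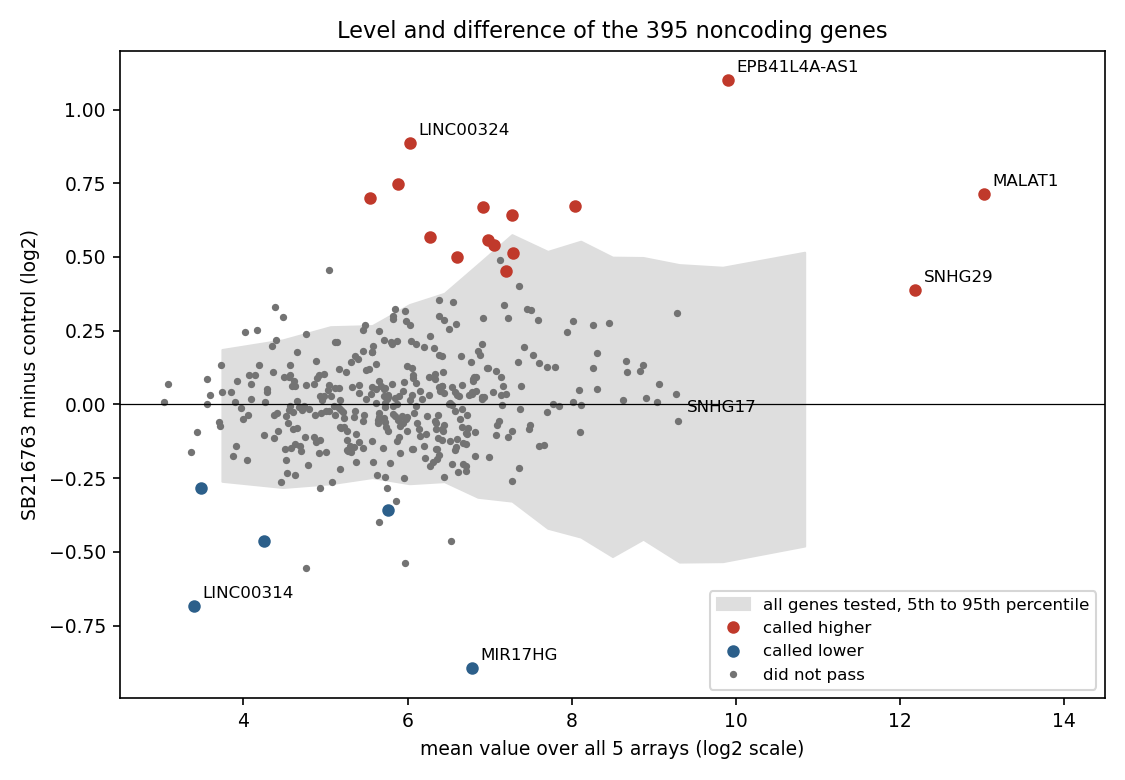
Difference between SB216763 and control cells (log2, vertical axis) against the mean value over all 5 arrays (log2, horizontal axis) for the 395 noncoding genes, with called genes in colour and the 5th to 95th percentile of all genes tested as a grey band. EPB41L4A-AS1 lies at 1.10 and MIR17HG at -0.89.

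MIR17HG showed the largest decrease of the 395 in the fitted difference. It had 6.38, 6.31 and 6.58 with SB216763, against 7.22 and 7.42 in control cells. All 3 SB216763 arrays lay below both control arrays. The gene averaged 6.42 ± 0.14 (SD, n = 3) with SB216763 and 7.32 ± 0.14 (SD, n = 2) in control cells, a 1.86-fold lower level (log2 difference -0.89, SE 0.11, adjusted p = 0.00288 by limma). MYC and E2F factors are known activators of this host gene. MYC had 9.74, 9.72 and 9.80 with SB216763, against 10.75 and 10.86 in control cells, without overlap (log2 difference -1.05, SE 0.08, adjusted p = 0.000588 by limma). E2F2 had 7.15, 7.09 and 6.98 with SB216763, against 7.57 and 7.90 in control cells, again lower on every SB216763 array (log2 difference -0.67, SE 0.11, adjusted p = 0.00950 by limma). E2F1 differed by -0.29 and E2F3 by -0.17, and neither passed (adjusted p = 0.0742 and 0.278 by limma). Their part in the MIR17HG value was not tested. The MIR17HG difference was -0.996 without control replicate 1 and -0.79 without control replicate 2 (adjusted p = 0.0745 and 0.0839 by limma).

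EPB41L4A-AS1, the host of SNORA13, showed the largest rise and was the only one of the 395 with a difference of at least 1 on the log2 scale. It had 10.36, 10.27 and 10.41 with SB216763, against 9.28 and 9.22 in control cells. The groups were well apart, with little spread within either. The mean was 10.35 ± 0.07 (SD, n = 3) with SB216763 and 9.25 ± 0.04 (SD, n = 2) in control cells, 2.14-fold higher (log2 difference 1.10, SE 0.08, 95% interval 0.91 to 1.29, adjusted p = 0.000585 by limma). EPB41L4A, the protein gene it is named after, was above background on no array and differed by 0.04 (SE 0.10). SNORA13 had 6.61, 6.23 and 6.76 with SB216763, against 6.93 and 6.74 in control cells, with overlap between the groups (log2 difference -0.30, SE 0.15, adjusted p = 0.267 by limma). On SB216763 replicate 2 it lay close to the background level of 6.15. The value of EPB41L4A-AS1 minus that of SNORA13 was 3.75, 4.04 and 3.65 with SB216763, against 2.34 and 2.48 in control cells. This gap was wider on every SB216763 array, by 1.40 on average, of which the called rise of the host is 1.10. The exact two-sided permutation test gave p = 0.2. As run here, with 3 against 2 arrays, it can give no smaller value, so it cannot decide whether the gap differs. The pair joins the largest rise of the 395 to the lowest difference among the hosted small RNAs with a probe of their own. A wider gap therefore follows in large part from which pair was taken, and is no separate result. The host's difference was 1.13 without control replicate 1 and 1.07 without control replicate 2 (adjusted p = 0.0572 and 0.0567 by limma).

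SNHG29 carries SNORD49A and related snoRNAs. It had 12.37, 12.35 and 12.31 with SB216763, against 11.95 and 11.96 in control cells. The groups were separate and the arrays within each close together (log2 difference 0.39, SE 0.07, adjusted p = 0.0152 by limma, 1.31-fold). A dimmer probe of SNHG29 had 8.96, 8.67 and 9.004 with SB216763, against 8.11 and 8.31 in control cells (difference 0.67). SNORD49A itself had 9.56, 9.26 and 9.54 with SB216763, against 8.84 and 8.997 in control cells, and was called higher as well (log2 difference 0.53, SE 0.11, adjusted p = 0.0219 by limma); this snoRNA, with those of SNHG32 and ZFAS1, was looked up after values had been seen. The SNHG29 difference was 0.38 without control replicate 1 and 0.39 without control replicate 2 (adjusted p = 0.114 and 0.102 by limma), and 0.37 without SB216763 replicate 1 (adjusted p = 0.0828 by limma). SNHG17, the other SNHG gene with a probe of its own, had 9.37, 9.11 and 9.36 with SB216763, against 9.32 and 9.35 in control cells, with overlapping groups and a difference whose 95% interval ran from -0.29 to 0.18 (adjusted p = 0.804 by limma).

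Of 53 small RNAs listed for snoRNA hosts, 21 had a probe of their own, from 10 hosts. Of the 21, 2 were called higher, where 7.21% of all genes were, and 19 did not pass, with a median difference of 0.14 and a range from -0.30 (SNORA13) to 0.45 (SNORD79). SNORA24, an snoRNA of SNHG8, had 9.28, 9.34 and 9.16 with SB216763, against 8.72 and 8.93 in control cells, without overlap (log2 difference 0.43, SE 0.10, adjusted p = 0.0275 by limma). SNORD60, of SNHG19, had 8.84, 8.66 and 8.93 with SB216763, against 8.34 and 8.48 in control cells, also without overlap (log2 difference 0.40, SE 0.10, adjusted p = 0.0444 by limma). None of the 7 measured snoRNAs of GAS5, a host known for accumulating in growth-arrested cells, passed the test: SNORD79 differed by 0.45, SNORD77 by 0.21, SNORD78 by 0.18, SNORD74 by 0.14, SNORD44 by 0.06, SNORD81 by 0.05 and SNORD75 by -0.02. Probes that name a host together with its snoRNA or a neighbour were fitted among all 33297 probes, of which 5.73% were called. There were 23, of which 2 were called higher and 21 did not pass, with a median difference of 0.13. Both called probes name SNHG32 and SVIL and have identical values, so they count as 1: 10.71, 10.70 and 10.77 with SB216763, against 9.68 and 9.63 in control cells (log2 difference 1.07, SE 0.07, adjusted p = 0.00716 by limma). The reading cannot be assigned to either gene. SNORD52, which SNHG32 hosts, had 9.90, 9.70 and 9.90 with SB216763, against 9.43 and 9.45 in control cells, and was called higher (log2 difference 0.39, SE 0.09, adjusted p = 0.0299 by limma). GAS5 shares its probes with SNORD47, SNORD80 and SNORD76, and these differed by 0.38, 0.16 and 0.22, none passing.

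**Figure D2:**
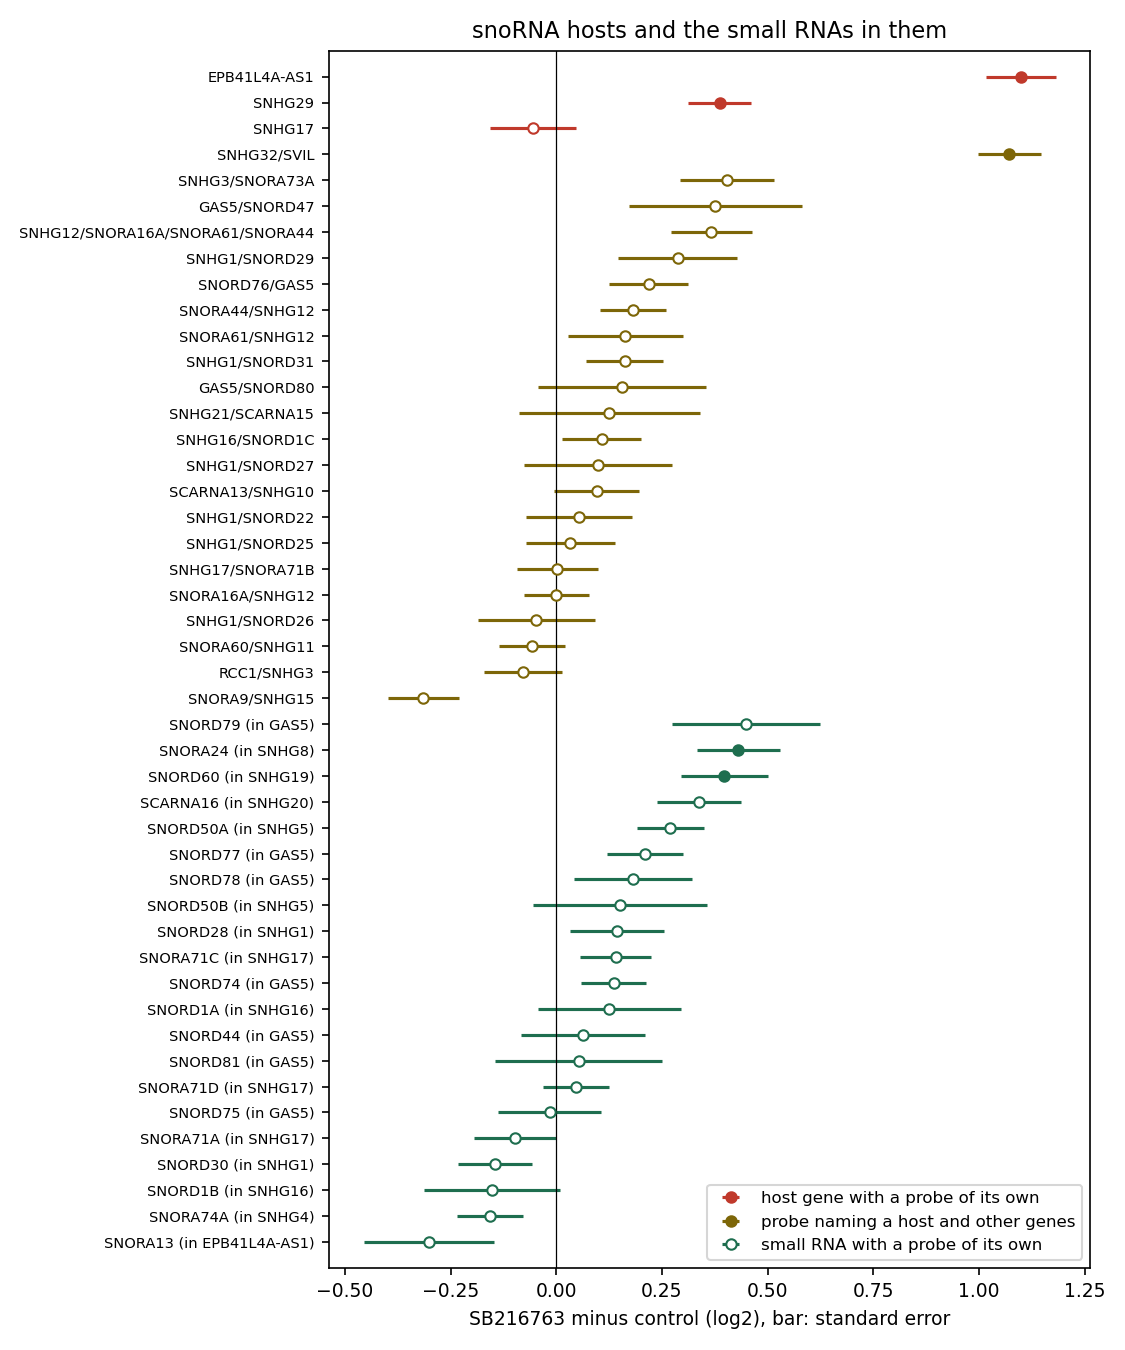
Difference between SB216763 and control cells (log2, horizontal axis) with its standard error for snoRNA hosts, probes shared by a host and its snoRNA, and snoRNAs with a probe of their own. Filled points passed the test; SNORA13 lies at -0.30 and its host EPB41L4A-AS1 at 1.10.

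MALAT1, an abundant RNA of nuclear speckles, rose. It had 13.38, 13.15 and 13.43 with SB216763, against 12.51 and 12.70 in control cells. Every SB216763 array was above both control arrays (log2 difference 0.71, SE 0.11, adjusted p = 0.00705 by limma, 1.64-fold). A dimmer MALAT1 probe had 8.81, 8.52 and 8.81 with SB216763, against 7.81 and 7.96 in control cells (difference 0.83), the same direction. The MALAT1 difference was 0.62 without control replicate 1 and 0.81 without control replicate 2 (adjusted p = 0.124 and 0.0842 by limma).

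Of the 206 LINC genes, 3 rose and 3 fell, or 2.91%, against 13.1% of all genes. LINC00324 had 6.35, 6.42 and 6.38 with SB216763, against 5.67 and 5.33 in control cells. Control cells were above background on neither array, so the rise is given as at least 1.15-fold (log2 difference 0.89, SE 0.11, adjusted p = 0.00306 by limma). LINC00174 had 7.13, 7.18 and 7.27 with SB216763, against 6.57 and 6.48 in control cells, and the groups did not overlap (log2 difference 0.67, SE 0.08, adjusted p = 0.00295 by limma). LINC00528 had 7.55, 7.47 and 7.43 with SB216763, against 6.96 and 6.99 in control cells, with no overlap (log2 difference 0.51, SE 0.08, adjusted p = 0.00681 by limma). The 3 that fell, LINC00314 (-0.68), LINC01556 (-0.36) and LINC01931 (-0.28), were above background on no array, and no fold is given for them. With the mean of its probes LINC00314 differed by -0.31 and did not pass (adjusted p = 0.116 by limma). The calls of all 3 were also lost without SB216763 replicate 1 (adjusted p = 0.109, 0.166 and 0.180 by limma) and replicate 3 (0.0795, 0.0910 and 0.0921), and that of LINC01931 without replicate 2 (0.0541). No function is given here for these genes.

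**Figure D3:**
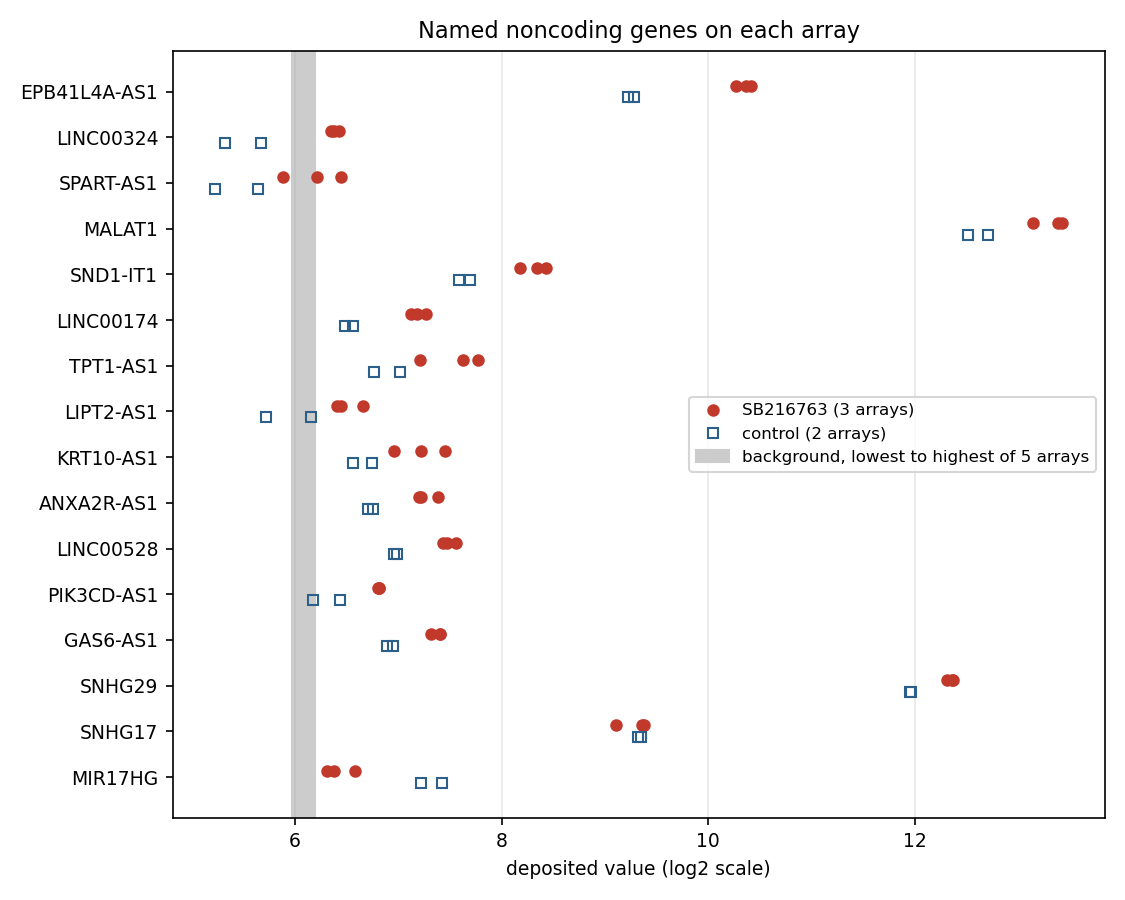
Deposited values (log2, horizontal axis) of the named noncoding genes on each of the 3 SB216763 arrays (filled circles) and 2 control arrays (open squares), with the range of the 5 background levels in grey. MIR17HG is lower on all SB216763 arrays and SNHG17 overlaps.

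Among 175 antisense genes, 8 rose besides EPB41L4A-AS1 counted above, and 1 fell. These calls are 5.14% of the 175, against 13.1% of all genes. ANXA2R-AS1 had 7.22, 7.20 and 7.39 with SB216763, against 6.76 and 6.70 in control cells, without overlap (log2 difference 0.54, SE 0.09, adjusted p = 0.00836 by limma). GAS6-AS1 had 7.32, 7.40 and 7.41 with SB216763, against 6.95 and 6.90 in control cells, likewise apart (log2 difference 0.45, SE 0.08, adjusted p = 0.00998 by limma). PIK3CD-AS1 had 6.81, 6.80 and 6.81 with SB216763, against 6.18 and 6.44 in control cells, where control cells were above background on 1 of 2 arrays (log2 difference 0.50, SE 0.09, adjusted p = 0.0142 by limma). These 3 differences exceeded the spread within either group. TPT1-AS1 had 7.63, 7.21 and 7.77 with SB216763, against 6.77 and 7.02 in control cells, the groups lying closer together (log2 difference 0.64, SE 0.17, adjusted p = 0.0424 by limma). A dimmer TPT1-AS1 probe had 7.33, 6.90 and 7.16 with SB216763, against 6.33 and 6.48 in control cells (difference 0.73). KRT10-AS1 had 7.21, 6.96 and 7.46 with SB216763, against 6.74 and 6.56 in control cells (log2 difference 0.56, SE 0.14, adjusted p = 0.0427 by limma). LIPT2-AS1 had 6.41, 6.45 and 6.66 with SB216763, against 6.16 and 5.72 in control cells, at least 1.25-fold, as neither control array was above background (log2 difference 0.57, SE 0.14, adjusted p = 0.0378 by limma). The LIPT2-AS1 difference was 0.79 without control replicate 1 and 0.35 without control replicate 2. In these last 3 genes every SB216763 array was above both control arrays. SPART-AS1 had 6.45, 5.89 and 6.21 with SB216763, against 5.23 and 5.64 in control cells, above background on 2 SB216763 arrays and no control array, and is given no fold (log2 difference 0.75, SE 0.18, adjusted p = 0.0331 by limma). Without SB216763 replicate 1 the calls of TPT1-AS1, KRT10-AS1, LIPT2-AS1, SPART-AS1 and PIK3CD-AS1 were lost too (adjusted p = 0.132, 0.122, 0.0800, 0.0941 and 0.0625 by limma). Without SB216763 replicate 3 the first 4 of these were lost (adjusted p = 0.101, 0.0811, 0.101 and 0.0869 by limma), and without SB216763 replicate 2 LIPT2-AS1 was (adjusted p = 0.0657 by limma). EPCIP-AS1 (0.70) and AQP4-AS1 (-0.46) passed while above background on no array, and the AQP4-AS1 call was lost whichever array was left out (adjusted p = 0.109, 0.0709 and 0.0693 by limma without SB216763 replicate 1, 2 and 3). Leaving out control replicate 1 gave AQP4-AS1 a difference of -0.29, and leaving out control replicate 2 one of -0.63. Of the 9 intronic transcripts, SND1-IT1 alone passed (11.1%, against 13.1% of all genes). It had 8.34, 8.18 and 8.43 with SB216763, against 7.59 and 7.70 in control cells, with no overlap (log2 difference 0.67, SE 0.10, adjusted p = 0.00523 by limma).

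Of 185 noncoding genes named after another gene, 168 had that gene measured, and 17 of these partners rose and 9 fell, or 15.5%, close to the 13.1% of all genes. Both genes of a pair were called in 2 pairs, each time higher. Whether these 2 exceed what the 15.5% of partners called would give without a link was not tested. GAS6, a ligand of the TAM receptor kinases, had 10.35, 10.43 and 10.35 with SB216763, against 9.93 and 9.92 in control cells, without overlap (log2 difference 0.45, SE 0.08, adjusted p = 0.00937 by limma). SND1, a nuclease and transcriptional coactivator, had 11.79, 11.79 and 11.76 with SB216763, against 11.29 and 11.50 in control cells (log2 difference 0.38, SE 0.09, adjusted p = 0.0294 by limma). SND1-IT1 is by its name an intronic transcript of SND1, and how far its probe reads unspliced SND1 RNA was not tested. In other pairs only the protein gene passed: LY86, a surface partner of CD180 on B cells and myeloid cells, differed by 1.31 (adjusted p = 0.000601 by limma) and LY86-AS1 by 0.34. SLCO4A1, an organic anion transporter, differed by -1.04 (adjusted p = 0.000832 by limma) and SLCO4A1-AS1 by -0.08. Conversely PIK3CD, a lymphoid PI3-kinase subunit, differed by -0.22, TPT1 by 0.26, SPART by 0.20 and LIPT2 by 0.06, none passing, while their antisense genes did. ANXA2R (0.17) and KRT10 (-0.06) did not pass and were below background. The difference between the genes of a pair was not tested. Over the 59 pairs above background on all 5 arrays, Pearson's r between both differences was 0.26 and Spearman's rho 0.22, a description across genes that share the same arrays, and 32 of 59 had the same sign.

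**Figure D4:**
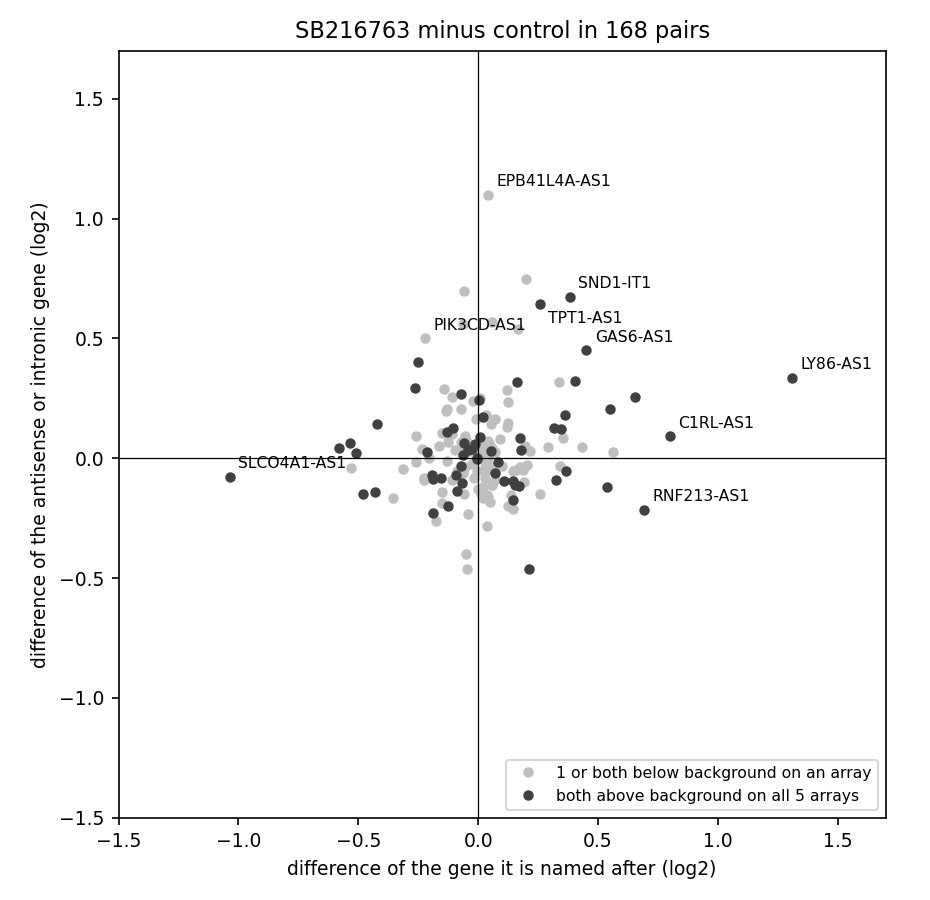
Difference between SB216763 and control cells (log2) of each noncoding gene (vertical axis) against that of the gene it is named after (horizontal axis), for 168 pairs, with the 59 pairs above background on all 5 arrays in dark points. GAS6-AS1 with GAS6 and SND1-IT1 with SND1 are the pairs in which both were called.

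Promoters are shown of the called hosts of small RNAs among the 395 genes, 250 bases before to 50 after the start, from RefSeq's GRCh38.p14, all on the + strand: EPB41L4A-AS1 at chr5:112160276-112160575, SNHG29 at chr17:16438737-16439036 and MIR17HG at chr13:91347437-91347736. Capitals mark matches, on either strand, to the E-box CACGTG, the CRE TGACGTCA, CCAAT or the GC box GGGCGG.
EPB41L4A-AS1: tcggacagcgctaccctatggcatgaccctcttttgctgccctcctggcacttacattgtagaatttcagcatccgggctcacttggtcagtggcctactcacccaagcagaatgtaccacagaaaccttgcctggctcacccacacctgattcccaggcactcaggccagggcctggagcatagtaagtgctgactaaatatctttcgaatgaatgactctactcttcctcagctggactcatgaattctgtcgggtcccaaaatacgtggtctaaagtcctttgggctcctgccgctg
SNHG29: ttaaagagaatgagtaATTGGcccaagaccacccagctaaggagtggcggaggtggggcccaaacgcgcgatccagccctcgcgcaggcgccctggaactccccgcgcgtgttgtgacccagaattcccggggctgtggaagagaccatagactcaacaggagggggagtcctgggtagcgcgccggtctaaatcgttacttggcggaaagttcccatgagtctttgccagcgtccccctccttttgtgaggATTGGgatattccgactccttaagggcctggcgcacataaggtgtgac
MIR17HG: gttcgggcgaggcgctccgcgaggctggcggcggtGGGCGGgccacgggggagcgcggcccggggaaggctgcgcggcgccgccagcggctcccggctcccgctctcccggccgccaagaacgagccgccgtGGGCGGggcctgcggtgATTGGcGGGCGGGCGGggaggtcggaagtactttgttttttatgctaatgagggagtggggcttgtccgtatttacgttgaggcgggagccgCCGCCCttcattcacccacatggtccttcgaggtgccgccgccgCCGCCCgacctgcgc
The MIR17HG window had 6 GC box matches, some overlapping, and 1 to CCAAT, SNHG29 had 2 to CCAAT, and EPB41L4A-AS1 had none of the 4 motifs. The E-box, which MYC binds, was in 7.43% of 27305 promoters, in 18 of 277 promoters of the noncoding genes (6.50%) and in 0 of the 15 called genes with a promoter entry. The CRE was in 1.98% of all promoters, 1.08% of the 277 and 0 of the 15. CCAAT was in 35.7% of all, 32.9% of the 277 and 3 of the 15, and the GC box in 44.6%, 37.5% and 6. A match is a description of these letters only. Of the 277, 51 had a gene starting within 1000 bases in the opposite direction, and among 40 such neighbours tested 3 were higher and 2 lower, beside 7.21% and 5.92% of all genes. TPT1-AS1 and SPART-AS1 were the called genes with such a neighbour, and in neither pair were both called.

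Genes whose products handle noncoding RNA were read as lists, beside 13.1% of all genes called (7.21% higher, 5.92% lower) and 18.2% of those above background on all 5 arrays, as every measured gene of the first 4 lists was. Of 13 snoRNP proteins and assembly factors measured, 0 rose and 5 fell, with a median difference of -0.27 (0.00 for all genes): NHP2 (-0.56, adjusted p = 0.00482), DKC1 (-0.60, adjusted p = 0.00587), RUVBL1 (-0.62, adjusted p = 0.00681), RUVBL2 (-0.47, adjusted p = 0.0115) by limma were the 4 with the smallest p. DKC1 is the pseudouridine synthase of H/ACA particles, NHP2 a protein of the same particles, and RUVBL1 a helicase of their assembly. Of 16 genes of the RNA exosome, which degrades nuclear RNA, and its adaptors, 0 rose and 3 fell, with a median of -0.16: EXOSC5 (-0.86, adjusted p = 0.00133), EXOSC4 (-0.53, adjusted p = 0.00836), EXOSC2 (-0.46, adjusted p = 0.0125) by limma. Of 11 paraspeckle proteins, 0 rose and 3 fell, with a median of -0.15: DAZAP1 (-0.33, adjusted p = 0.0308), RBM14 (-0.32, adjusted p = 0.0395), HNRNPK (-0.35, adjusted p = 0.0427) by limma. Of 13 nonsense-mediated decay factors, 0 rose and 1 fell, EIF4A3 (-0.31, adjusted p = 0.0458) by limma, with a median of -0.10. Of 11 other named long noncoding RNAs, 2 rose and 0 fell, with a median of 0.10. ZFAS1, another snoRNA host, had 10.71, 10.74 and 10.83 with SB216763, against 10.02 and 10.05 in control cells, without overlap (log2 difference 0.73, SE 0.08, adjusted p = 0.00196 by limma), while its snoRNA SNORD12C differed by -0.26 (adjusted p = 0.277 by limma). TUG1, taurine upregulated 1, had 11.02, 10.91 and 11.04 with SB216763, against 10.54 and 10.53 in control cells, also apart (log2 difference 0.45, SE 0.08, adjusted p = 0.0112 by limma).

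**Figure D5:**
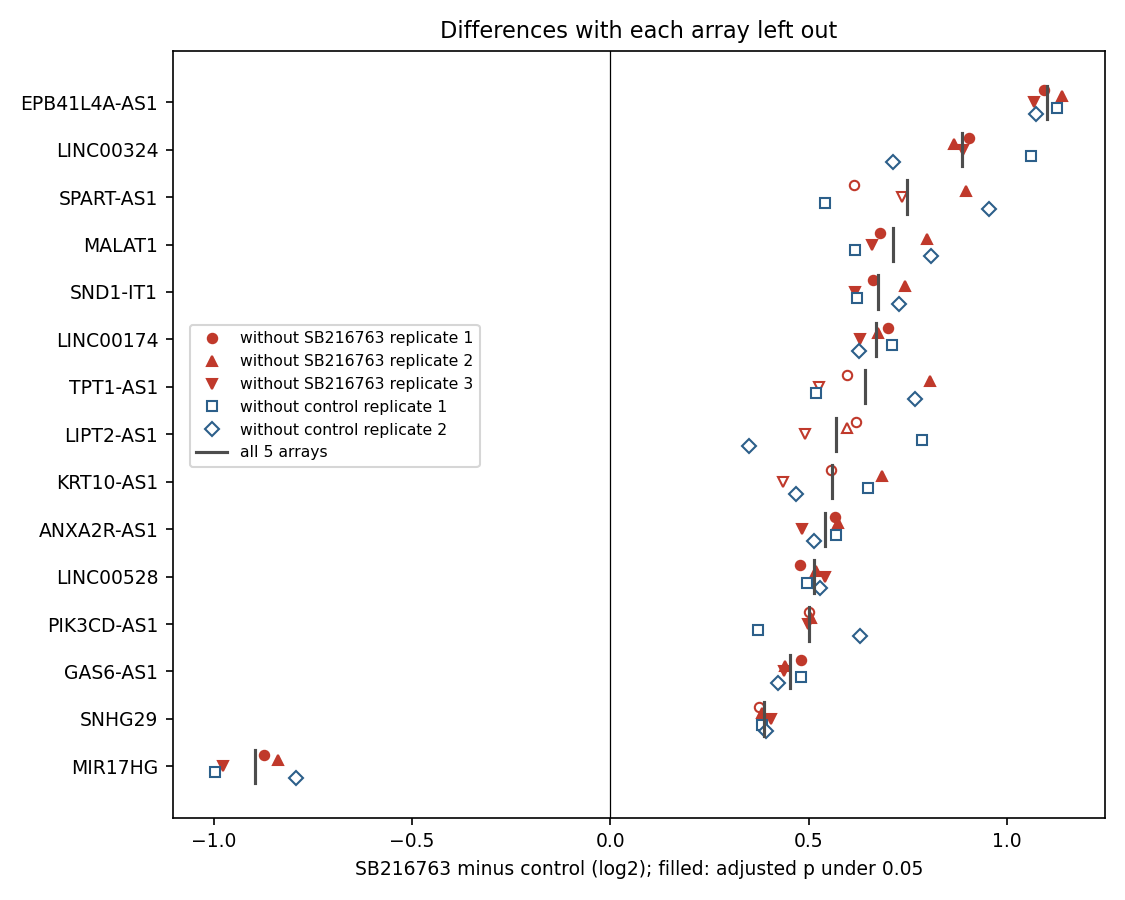
Difference between SB216763 and control cells (log2, horizontal axis) of the named noncoding genes with each array left out in turn, filled where the adjusted p stayed under 0.05, beside the value from all 5 arrays. All points keep their side of 0 for the called genes, and those without a control array are open. Where the groups do not overlap, no left-out array can move a point across 0.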

How the data were processed

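The values are the log2 intensities the authors deposited. Affymetrix Expression Console is named, with no role, per the submitters' processing notes, and no source used here gives the summarisation method, its normalization or a genome build. Of 33297 probes, 19460 have 1 gene symbol in the platform annotation, 1754 several and 12083 none. For 769 genes with several probes the brightest probe (mean of all 5 arrays) was taken, giving 18417 genes.

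SB216763 (3 arrays) was compared with control (2 arrays) by limma 3.58.1 in R 4.3.3 (lmFit, eBayes, two-sided, Benjamini-Hochberg over all genes, threshold 0.05). The fit was also run on simulated data with independent noise on each array. That setting cannot show how variation shared within these arrays bears on the calls, and no result here rests on it. A fold bound sets the bright group's mean against the background level. Named are the called genes above background in at least 1 group, the SNHG and other listed hosts, their small RNAs, the partners of named antisense genes, and up to 4 genes per list by smallest p; LY86, SLCO4A1, MYC and the E2F genes were chosen after their values were seen. The noncoding genes and all lists were chosen with earlier results of these data known. Other normalizations, filters, variance models, array weights, a replicate block and leaving out arrays were tried. Tables and figures used Python 3.11.15, pandas 2.3.3 and matplotlib 3.10.9.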

Additional observations from a re-analysis of the deposited data

How the results depend on the processing

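The deposited normalization could not be redone, and 2 control arrays limit every call. Quantile normalization, centring, the mean of a gene's probes and the trend and robust settings gave 14 to 19 noncoding genes higher and 4 to 6 lower; KRT10-AS1 lost its call when arrays were centred (adjusted p = 0.0560 by limma) or quantile normalized (0.0524), LINC00314 with the mean of its probes (difference -0.31, 0.116), and LINC01556 and LINC01931 with the trend and robust settings (0.0539 and 0.0646). Over all genes those fits gave 1146 to 1688 higher and 1085 to 1537 lower. The main fit called more genes higher than lower (1328 and 1090). Quantile normalization (1345 and 1537) and centring (1146 and 1383) called more lower. The median difference of the noncoding genes was 0.00 and -0.02 in these 2 fits, beside -0.02 and -0.03 for all genes. Without SB216763 replicate 2 it was -0.03, beside -0.02 for all genes. With dim genes left out, 164 noncoding genes were tested and 25 were higher and 2 lower, with 1705 and 1456 over all genes kept. All probes tested singly gave 11 and 1, with 1162 and 745 over all probes. The calls of TPT1-AS1, KRT10-AS1, LIPT2-AS1, SPART-AS1, AQP4-AS1, LINC00314, LINC01556 and LINC01931 were lost there (adjusted p = 0.0878 to 0.111 by limma). Without moderation 2 were higher and 0 lower (26 and 12 at an unadjusted p under 0.05), with 126 and 125 over all genes. The 2 were EPB41L4A-AS1 and SNHG29. Among the calls lost were MIR17HG, MALAT1, SND1-IT1 and LINC00324 (adjusted p = 0.0958, 0.126, 0.0996 and 0.0979 by the t-test without moderation). Array weights, which gave SB216763 replicate 1 a weight of 8.54 and the other arrays 0.31 to 0.76, gave 41 and 20, with 2568 and 2152 over all genes. Leaving out each array gave 0 to 22 noncoding genes higher and 0 to 8 lower, and 0 to 1680 and 0 to 1179 over all genes. The cause was not tested. The 20 called noncoding genes, the only called genes refitted by name, kept their sign in each fit that gave them a value. For groups without overlap, the fits with 1 array left out could give no other sign.

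The groups share replicate numbers 1 and 2, but the deviations of same-numbered arrays correlated at -0.05 and -0.10, so no pairing was taken. With the replicate block 19 noncoding genes were higher and 5 lower, and over all genes 941 and 889; 17 of the 20 calls held, and those of TPT1-AS1, LINC01556 and LINC01931 did not (adjusted p = 0.0550, 0.0923 and 0.137 by limma). The median difference of the noncoding genes was 0.05 with the block, the same as without SB216763 replicate 3. That array shares its number with no control array, so in the block fit it does not bear on the differences.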
